A study of Mus musculus with 88 samples.

Results

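The 9 genes described here encode feedback inhibitors of mitogen-activated protein kinase (MAPK) signalling: the phosphatases Dusp1, Dusp4, Dusp5, Dusp6 and Dusp14, the Sprouty proteins Spry2 and Spry4, and the Sprouty-related proteins Spred1 and Spred2. They were chosen by name, with earlier results of these data known. Through the gene symbols that GENCODE release M21 pairs with the identifiers of the count tables, all 9 were found among the 53749 genes counted. In neuronal nuclei of the medial prefrontal cortex (mPFC) all 9 rose within 10 minutes of contextual fear conditioning (CFC), beside 8.28% of all genes tested. In hippocampal neuronal nuclei 6 did, beside 2.74% of all genes, and 3 to 6 did when each library was left out in turn. Between 10 and 30 minutes 4 of the 5 phosphatase genes fell again in the mPFC, beside 0.539% of all genes. Spred1 was called higher at 30 than at 10 minutes in both regions and Spred2 in the hippocampus. Of all genes 0.747% were called higher in the mPFC and 0.144% in the hippocampus over this interval.

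When a receptor tyrosine kinase or a neurotrophin receptor is activated, Ras, Raf and MEK pass the signal to the kinases ERK1 and ERK2, which enter the nucleus and switch on genes such as Fos, Egr1 and Arc. Several genes switched on in this way encode proteins that end the signal: dual-specificity phosphatases (DUSPs) remove the activating phosphates from MAPKs, Sprouty proteins act near the receptor and Ras, and Spred proteins hold back the activation of Raf by Ras. In neurons, ERK signalling is known for its part in activity-dependent transcription and in memory formation.

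Nuclei of 4-month-old C57BL/6J mice were sorted by NeuN, a neuronal nuclear protein, into a NeuN+ and a NeuN- fraction from naive animals kept in their home cages and from animals 10 or 30 minutes after placement in the conditioning chamber (CFC10 and CFC30), with 4 hippocampal and 3 mPFC libraries per condition. Hippocampal NeuN+, GFAP+ (astrocyte), PU.1+ (microglia) and 3X- nuclei, the last negative for all 3 markers, were sorted 30 minutes after corticosterone (2 mg/kg) or saline, with 4 libraries each. The authors call the 3X- nuclei oligodendrocyte-enriched. γH2AX, a phosphorylated histone that marks DNA double-strand breaks, was mapped by ChIP-Seq in whole tissue, without sorting. Chromatin was pooled from 3 animals for each replicate, naive or CFC30, with 3 hippocampal and 4 mPFC replicates per condition. All animals were wild type and male, CFC joined a new context to a foot shock with no group given the context alone, and each fraction held every nucleus of its stain, so a NeuN- value is an average over several glial and vascular types.

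The naive hippocampal NeuN- libraries 3 and 4 held identical values in all 53749 genes and were counted as 1 sample, which left 73 of 74 RNA libraries. Total counts ran from 10561897 to 18271372 per library in the hippocampus, from 10577263 to 16392677 in the mPFC and from 5935395 to 12758257 in the corticosterone experiment. The summed level of 8 neuron markers was 9038 to 9739 CPM (counts scaled to a common library total) in NeuN+ libraries and 366 to 1073 in NeuN- libraries. It was 2174 to 3043 in GFAP+, 1337 to 2137 in PU.1+ and 698 to 933 in 3X- libraries, and its part in the levels of the members there was not tested. In these bulk samples fewer cells of a type and less RNA per cell cannot be told apart, and because nothing in the labels ties each library to its own animals, the p-values measure the spread between these libraries.

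The promoters of Dusp1 and Dusp5 are shown because these were the phosphatase genes with the largest log2 fold changes in NeuN+ nuclei 10 minutes after CFC, in both regions, and each holds an intact element of a kind known from activity-regulated promoters. Capitals mark the cyclic AMP response element (CRE), the site of CREB, in Dusp1 and 2 adjoining CArG boxes, the core of the serum response element, in Dusp5.

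Dusp1: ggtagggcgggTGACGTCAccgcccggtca

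Dusp5: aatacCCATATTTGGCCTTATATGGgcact

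Both stretches are RefSeq sequence of GRCm38.p6, written 5′ to 3′ on the strand of the gene. That of Dusp1 is chr17:26508597-26508626 on the minus strand, and its CRE begins 143 bases before the transcription start. That of Dusp5 is chr19:53529058-53529087 on the plus strand, with CArG boxes that begin 82 and 72 bases before the start. A CRE (TGACGTCA) was found in 1 of the 7 promoters that could be matched (from 250 bases before to 50 after the start, both strands searched) and in 1.79% of 32851 promoters, and a CArG box in 1 of 7 and in 1.63%. The CRE half-site TGACG, which the full CRE contains, was in 3 of 7 (Dusp1, Dusp5 and Spred2) and in 20.8% of all, and the ETS core CCGGAA in 2 of 7 (Dusp14 and Spry2) and in 14.9%. The AP-1 site TGACTCA, the EGR site GCGTGGGCG and the glucocorticoid half-site TGTTCT were in none of the 7, and in 5.20%, 0.612% and 18.97% of all promoters. Promoters of Dusp4 and Spry4 were not analysed here.

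In mPFC NeuN+ nuclei all 5 phosphatase genes rose at 10 minutes, by log2 fold changes of 0.92 to 2.74. With the Sprouty and Spred genes this made 9 of 9 genes called higher, where 8.28% of the 12983 genes tested were called higher and 14.6% were called in either direction (edgeR, adjusted p under 0.05). The median log2 fold change of the 9 genes was 1.60, beside 0.01 over all genes tested. The 9 genes were chosen with earlier results of these data known, so these shares describe them and do not test them as a set. All 9 calls held when each library was left out in turn. For all 9 every CFC10 library lay above every naive one, as it did for 15.8% of the genes tested. The summed level of 8 oligodendrocyte markers moved with CFC in this fraction, from 65.6 to 87.6 CPM in naive libraries to 121 to 157 at 10 and 119 to 185 at 30 minutes, mostly Mbp, and 1 of the 2 markers tested rose at each time. That of 8 astrocyte markers was 609.9 to 660.0 CPM in naive libraries, 669 to 748 at 10 and 708 to 716 at 30 minutes, with 1 of the 2 tested rising at each time. Of 10 striatal markers, Pde10a went from 1368 to 1527 CPM in naive libraries to 2067 to 2835 CPM at 10 and 2443 to 2675 CPM at 30 minutes, and the other 9 summed to 54.7 to 61.1, 56.5 to 68.8 and 69.1 to 77.9 CPM. Pde10a moved in hippocampal NeuN+ libraries too, from 913 to 1027 CPM in naive ones to 1144 to 1346 CPM at 10 and 1207 to 1358 CPM at 30 minutes. There the other 9 summed to 41.8 to 50.2, 45.7 to 52.9 and 47.8 to 55.1 CPM. The part of these shifts in the results was not tested.

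Dusp5, a nuclear phosphatase specific for ERK, changed most. Its level was 1.98, 1.99 and 1.45 CPM in the naive mPFC NeuN+ libraries, 14.1, 10.7 and 11.8 CPM at CFC10, and 8.81, 7.14 and 6.98 CPM at CFC30. The 3 conditions did not overlap, and the log2 fold change from naive was 2.74 ± 0.17 (SE; adjusted p = 1.48e-10) at 10 and 2.10 ± 0.19 (adjusted p = 3.77e-08) at 30 minutes.

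Dusp1, an immediate-early gene whose nuclear product acts on ERK, JNK and p38, stood at 1.72, 1.49 and 0.807 CPM in naive libraries. It reached 5.71, 6.99 and 6.27 CPM at CFC10 and then 3.72, 3.36 and 4.34 CPM at CFC30. All CFC libraries lay above all naive ones, with log2 fold changes of 2.24 ± 0.21 (SE; adjusted p = 8.26e-08) and 1.52 ± 0.23 (adjusted p = 2.59e-05). The reads are less certain for Dusp1 than for the other genes. Its GENCODE model spans 56539 bp, against 2882 bp in RefSeq, and the longer model runs across Ergic1 on the opposite strand, which had 86478 counts over all libraries where Dusp1 had 2849. Whether strand was used in counting is not given in the sources used here, so reads of overlapping genes cannot be told apart.

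Dusp6, the cytoplasmic ERK phosphatase, was at 3.62, 2.90 and 2.90 CPM in naive, 11.5, 9.77 and 8.90 CPM in CFC10 and 5.504, 5.80 and 5.58 CPM in CFC30 libraries. Every CFC10 library exceeded every CFC30 library, and the log2 fold changes from naive were 1.67 ± 0.14 (SE; adjusted p = 2.41e-08) and 0.86 ± 0.16 (adjusted p = 0.000238).

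Dusp4, another nuclear phosphatase, differed from these in its time course. It went from 1.46, 1.49 and 1.61 CPM in naive libraries to 4.30, 4.62 and 5.72 CPM at CFC10 and 5.09, 4.51 and 4.42 CPM at CFC30. The CFC10 and CFC30 libraries overlapped, with log2 fold changes of 1.67 ± 0.20 (SE; adjusted p = 3.18e-06) and 1.63 ± 0.19 (adjusted p = 1.56e-06) from naive.

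Dusp14, a small phosphatase that also acts on MAPKs, had the highest phosphatase counts of these nuclei, at 28.3, 31.6 and 32.5 CPM in naive libraries. The CFC10 libraries held 59.8, 56.3 and 59.2 CPM and the CFC30 libraries 46.2, 44.0 and 44.0 CPM. The order CFC10 above CFC30 above naive held for every library, with log2 fold changes of 0.92 ± 0.07 (SE; adjusted p = 9.00e-10) and 0.56 ± 0.07 (adjusted p = 1.56e-06).

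**Figure D1:**
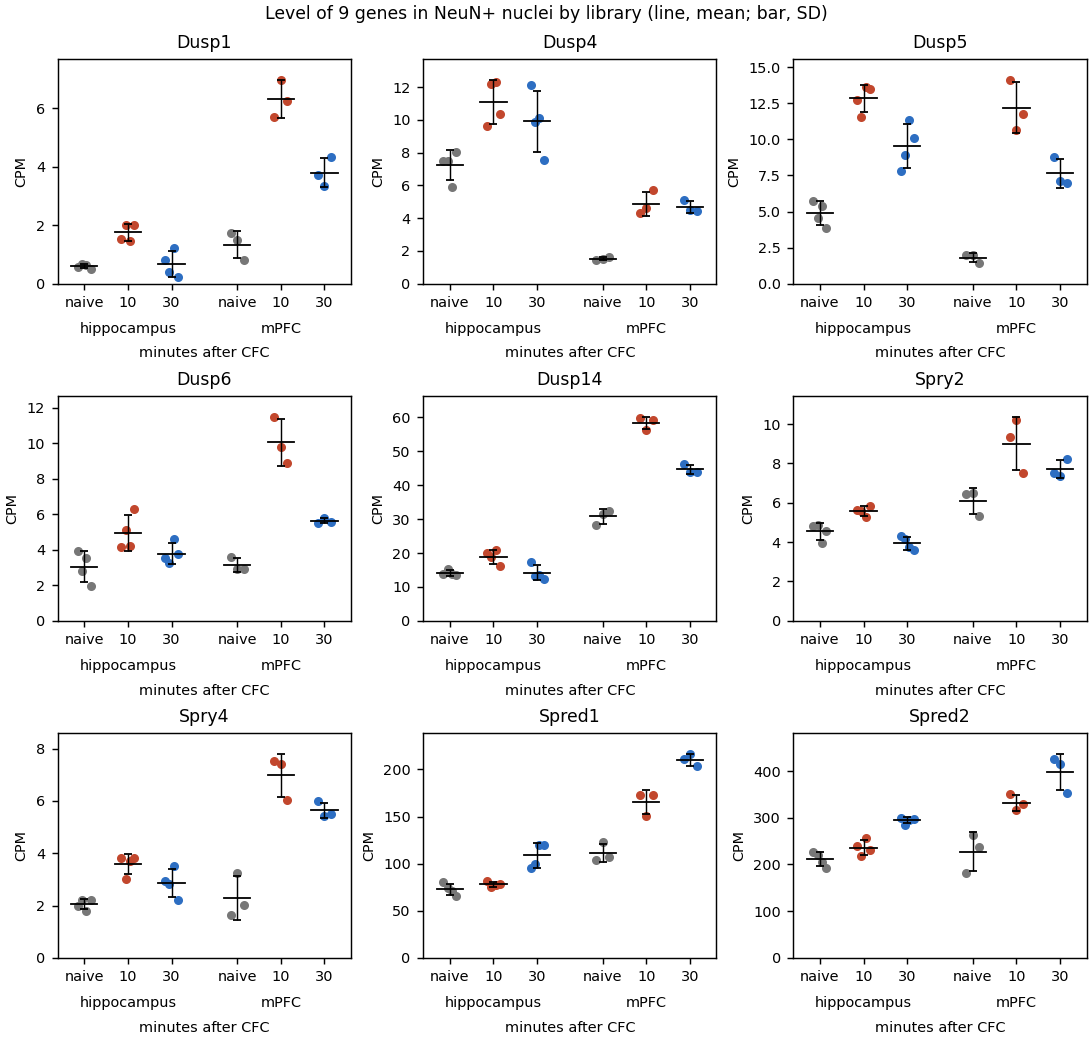
CPM of each gene in NeuN+ nuclei by library (points), with the mean (line) and SD (bar), in naive mice and 10 or 30 minutes after CFC, for hippocampus (4 libraries a condition) and mPFC (3). In the mPFC the means of the 5 Dusp genes were highest at 10 minutes and those of Spred1 and Spred2 at 30 minutes.

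Of the Sprouty genes in mPFC NeuN+ nuclei, Spry4 rose more than Spry2. Spry4 was at 1.64, 3.24 and 2.02 CPM in naive libraries, 7.52, 7.40 and 6.03 CPM at CFC10 and 5.99, 5.43 and 5.505 CPM at CFC30. The naive libraries lay below all others, and the log2 fold change was 1.60 ± 0.18 (SE; adjusted p = 2.42e-06) at 10 and 1.31 ± 0.19 (adjusted p = 1.57e-05) at 30 minutes. Spry2 was at 6.46, 6.47 and 5.32 CPM in naive, 9.34, 10.2 and 7.50 CPM in CFC10 and 7.50, 7.38 and 8.22 CPM in CFC30 libraries. It rose at 10 minutes, by 0.57 ± 0.13 (SE; adjusted p = 0.00357). At 30 minutes its log2 fold change of 0.36 had an adjusted p of 0.0501, although the groups did not overlap. That value passed the threshold without CFC10 replicate 1 (adjusted p = 0.0459), 2 (0.0470) or 3 (0.0358).

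Spred1 and Spred2, the Sprouty-related genes, had higher means at 30 than at 10 minutes in mPFC NeuN+ nuclei, unlike the other 7 members. Spred1 was at 104, 122 and 107 CPM in naive libraries, 173, 150 and 173 CPM at CFC10 and 211, 216 and 203 CPM at CFC30. These conditions did not overlap, with log2 fold changes from naive of 0.57 ± 0.06 (SE; adjusted p = 1.99e-06) and 0.94 ± 0.06 (adjusted p = 5.99e-10). Spred2 was at 181, 262 and 239 CPM in naive, 350, 316 and 331 CPM in CFC10 and 426, 416 and 353 CPM in CFC30 libraries. Its 3 conditions did not overlap either, at log2 fold changes of 0.55 ± 0.09 (SE; adjusted p = 0.000126) and 0.83 ± 0.09 (adjusted p = 2.92e-07). In all, 8 of the 9 genes were called higher at 30 minutes, where 13.1% of all genes were called higher and 24.8% in either direction, and their median was 0.94 beside -0.00 for all genes. The 10- and 30-minute comparisons share the same naive libraries.

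In hippocampal NeuN+ nuclei 10 minutes after CFC the 5 phosphatase genes and Spry4 rose, 6 of 9 genes, where 2.74% of 12460 genes tested were called higher and 4.92% in either direction. Their median log2 fold change was 0.57 over the 9 genes and 0.00 over all genes. Dusp5 again had the smallest p. Its naive libraries held 5.76, 4.58, 5.40 and 3.89 CPM, its CFC10 libraries 12.8, 11.5, 13.6 and 13.5 CPM and its CFC30 libraries 7.78, 8.90, 11.3 and 10.1 CPM. The groups did not overlap, and the log2 fold change was 1.36 ± 0.12 (SE; adjusted p = 8.20e-07) at 10 and 0.95 ± 0.13 (adjusted p = 0.000184) at 30 minutes.

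Dusp1 was the least expressed phosphatase here. It was at 0.584, 0.681, 0.655 and 0.507 CPM in naive libraries and at 1.54, 2.01, 1.47 and 2.03 CPM at CFC10, without overlap, a log2 fold change of 1.48 ± 0.31 (SE; adjusted p = 0.0105). At CFC30 its levels of 0.818, 0.416, 1.22 and 0.220 CPM rested on 3 to 17 counts per library and spanned the naive range (log2 fold change 0.14, adjusted p = 0.879).

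Dusp4 was at 7.51, 7.49, 5.89 and 8.03 CPM in naive, 9.60, 12.2, 12.3 and 10.3 CPM in CFC10 and 12.1, 9.90, 10.1 and 7.55 CPM in CFC30 libraries. Its log2 fold change was 0.57 ± 0.13 (SE; adjusted p = 0.0147) at 10 minutes, without overlap, and 0.45 ± 0.13 (adjusted p = 0.0371) at 30 minutes, where 1 CFC30 library lay within the naive range. The call at 10 minutes was lost without naive replicate 3 (adjusted p = 0.0560) or CFC10 replicate 3 (0.0550). At 30 minutes it was lost without naive replicate 1 (0.0566), 2 (0.0708) or 3 (0.127) or CFC30 replicate 1 (0.124), 2 (0.0812) or 3 (0.0706).

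Dusp6 was at 3.92, 2.78, 3.52 and 1.94 CPM in naive libraries and 4.18, 5.13, 4.21 and 6.29 CPM at CFC10, a log2 fold change of 0.69 ± 0.19 (SE; adjusted p = 0.0377) without overlap. Its CFC30 libraries, at 3.55, 3.24, 4.59 and 3.74 CPM, overlapped the naive ones (log2 fold change 0.31, adjusted p = 0.369). The call at 10 minutes was lost without naive replicate 2 (adjusted p = 0.0934), 3 (0.0555) or 4 (0.105) or CFC10 replicate 2 (0.0551) or 4 (0.123). Dusp14 was at 13.8, 15.2, 13.9 and 13.4 CPM in naive and 19.9, 18.7, 20.8 and 16.2 CPM in CFC10 libraries, 0.37 ± 0.09 (SE; adjusted p = 0.0266) higher without overlap, and at 17.4, 13.3, 13.5 and 12.4 CPM at CFC30 (log2 fold change -0.00). Its call was lost without naive replicate 1 (adjusted p = 0.0680), 3 (0.0680) or 4 (0.0666) or CFC10 replicate 1 (0.0875) or 3 (0.100). Without naive replicate 3, which bears on 3 of these calls, 3 of the 9 genes were called.

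Among the Sprouty genes of hippocampal NeuN+ nuclei, Spry4 was at 2.00, 2.23, 1.80 and 2.20 CPM in naive, 3.81, 3.02, 3.72 and 3.83 CPM in CFC10 and 2.93, 2.83, 3.51 and 2.20 CPM in CFC30 libraries. It rose at 10 minutes by 0.78 ± 0.16 (SE; adjusted p = 0.00848), without overlap. At 30 minutes its log2 fold change was 0.46 (adjusted p = 0.0955), which passed without CFC30 replicate 4 (0.0378). Spry2 was at 4.84, 4.89, 3.93 and 4.56 CPM in naive, 5.64, 5.59, 5.26 and 5.86 CPM in CFC10 and 4.30, 4.16, 3.73 and 3.59 CPM in CFC30 libraries. The CFC10 libraries lay above all others, but neither comparison with naive passed (log2 fold changes 0.26 and -0.23, adjusted p = 0.207 and 0.311).

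The Spred genes of hippocampal NeuN+ nuclei were called at 30 minutes and not at 10. Spred1 was at 80.4, 74.0, 71.3 and 66.1 CPM in naive libraries, 81.4, 75.0, 77.5 and 78.6 CPM at CFC10 and 95.4, 99.9, 119.9 and 119.5 CPM at CFC30. Spred2 was at 226, 220, 206 and 193 CPM in naive, 239, 218, 257 and 232 CPM in CFC10 and 299, 285, 295 and 298 CPM in CFC30 libraries. For both genes the CFC30 libraries were above all others, while the naive and CFC10 libraries overlapped. The log2 fold change from naive was 0.56 ± 0.07 (SE; adjusted p = 6.01e-05) for Spred1 and 0.47 ± 0.05 (adjusted p = 4.11e-05) for Spred2 at 30 minutes, and 0.06 and 0.12 (adjusted p = 0.663 and 0.186) at 10. With Dusp4 and Dusp5 this made 4 of 9 genes called higher at 30 minutes, where 4.7% of all genes were called higher and 8.64% in either direction. The median of the 9 genes was 0.45 beside -0.00 for all genes.

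The change between 10 and 30 minutes had opposite signs in the Spred genes and the rest. In the hippocampal NeuN+ fraction Spred1 rose by 0.50 ± 0.07 (SE; adjusted p = 0.000863) and Spred2 by 0.34 ± 0.05 (adjusted p = 0.00313), in a comparison in which 0.144% of genes were called higher and 0.305% in either direction. The other 7 genes had log2 fold changes from -1.34 (Dusp1, adjusted p = 0.0668) to -0.13 (Dusp4), none of them called. Without CFC30 replicate 1, Dusp1 (adjusted p = 0.0376) and Dusp14 (0.00344) passed and 4 genes were called; Dusp1 also passed without CFC30 replicate 3 (0.0178), and Dusp14 without CFC10 replicate 4 (0.04996). In the mPFC NeuN+ fraction, where 0.747% of genes were called higher, 0.539% lower and 1.29% in all, Spred1 rose by 0.37 ± 0.06 (SE; adjusted p = 0.00244), while Dusp6 (-0.81 ± 0.12, adjusted p = 0.000799), Dusp1 (-0.73 ± 0.16, 0.0166), Dusp5 (-0.64 ± 0.12, 0.00762) and Dusp14 (-0.36 ± 0.06, 0.00233) fell. Spred2 had 0.28 (adjusted p = 0.101), Spry4 -0.29, Spry2 -0.21 and Dusp4 -0.04. The fall of Dusp1 was not called by DESeq2 (-0.72, adjusted p = 0.117), and in edgeR it was lost without CFC10 replicate 2 (adjusted p = 0.173) or CFC30 replicate 1 (0.0783), and those of Dusp1 (0.123) and Dusp5 (0.0655) without CFC30 replicate 2, which left 3 genes called. Spred2 passed without naive replicate 1 (0.0147), CFC10 replicate 1 (0.0453) or CFC30 replicate 3 (0.0342).

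These genes also differ in length. Spred1 spans 61.2 kb and Spred2 99.6 kb in RefSeq, and the other 7 span 2.88 kb (Dusp1) to 21.2 kb (Dusp14). Counts cover the whole gene body, and the RNA is nuclear. Among the genes called higher at 10 or 30 minutes in hippocampal NeuN+ nuclei, 90.0% of 279 genes over 50 kb were higher at 30 than at 10 minutes, against 43.2% of 296 genes of up to 25 kb. In mPFC NeuN+ nuclei the shares were 92.4% of 785 long genes and 55.3% of 729 short ones. Over all genes tested they were 69.0% and 39.6% in the hippocampus and 65.4% and 37.8% in the mPFC. How much of the members' time course goes with span was not tested.

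**Figure D2:**
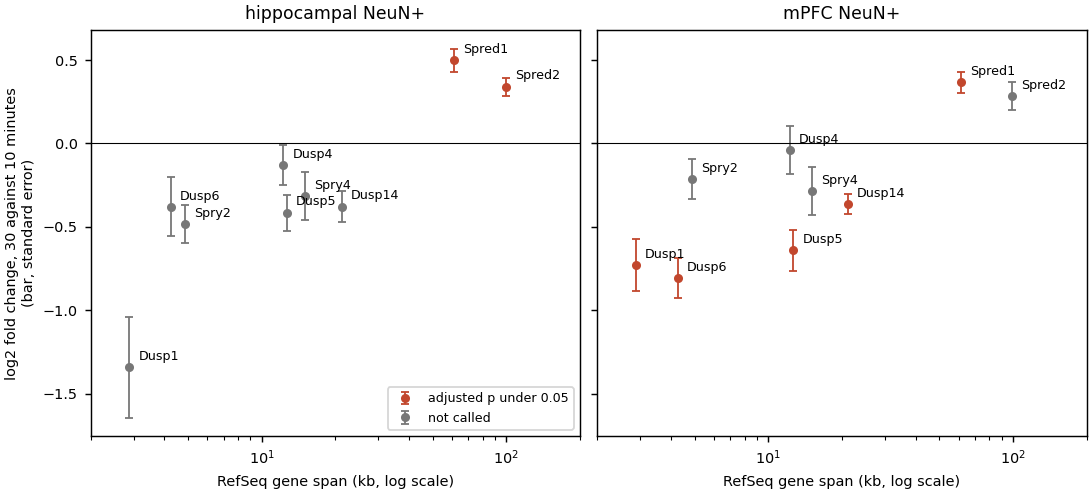
Log2 fold change of 30 against 10 minutes after CFC (vertical axis, with its standard error) by RefSeq gene span (horizontal axis, kb, log scale) in NeuN+ nuclei of hippocampus and mPFC; red marks genes with an adjusted p under 0.05. Spred1 and Spred2, the 2 long genes, lie above 0 in both regions and the 7 shorter ones below 0.

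The response to CFC differed between regions for a few members. The difference of the 10-minute effects in NeuN+ nuclei, mPFC minus hippocampus, was called for Dusp5 (log2 difference 1.37 ± 0.25 SE, adjusted p = 0.00504), in a test that called 0.121% of 17316 genes higher and 0.156% in either direction. The other 8 differences ran from 0.30 (Spry2) to 1.08 (Dusp4, adjusted p = 0.0601), all above 0. This count of 1 depended on single libraries. It was 2 without hippocampal NeuN+ naive replicate 3 or CFC10 replicate 4, hippocampal NeuN- CFC10 replicate 1 or 4 or CFC30 replicate 4, mPFC NeuN+ naive replicate 2, or mPFC NeuN- naive replicate 3, CFC10 replicate 1 or CFC30 replicate 2. It was 3 without hippocampal NeuN+ naive replicate 4 or CFC10 replicate 3, hippocampal NeuN- CFC30 replicate 2 or 3, or mPFC NeuN+ CFC10 replicate 2. It was 4 without hippocampal NeuN+ CFC30 replicate 1 or 4 or hippocampal NeuN- naive replicate 2, with Dusp4 (0.0334, 0.0389 and 0.0486), Dusp14 (0.0156, 0.0404 and 0.0486) and Spred1 (0.0315, 0.0404 and 0.0486) passing. At 30 minutes the difference was called for Dusp4 (1.19 ± 0.25, adjusted p = 0.0102), Dusp5 (1.16 ± 0.26, 0.0191) and Dusp14 (0.57 ± 0.13, 0.0151), with 0.699% of genes called higher and 0.849% in either direction. Without mPFC NeuN+ CFC30 replicate 1 none of the 3 passed (adjusted p = 0.0531, 0.0853 and 0.0674), without naive replicate 1 Dusp4 (0.0550) and Dusp14 (0.0844) were lost, and without naive replicate 3 Dusp5 was (0.0985). The mPFC libraries were made with version 1 of the library kit and the hippocampal ones with version 2, so region and kit cannot be told apart. In NeuN- nuclei no member differed between regions at either time, with 0.00578% and 0.116% of genes called and 2 and 1 members at an unadjusted p under 0.05.

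In NeuN- nuclei few of these genes changed after CFC. Dusp4, Dusp5 and Dusp14 stayed under the expression filter, at mean levels of 0.417 to 1.82 CPM, and 6 members were tested. In the mPFC, 2 rose at 10 minutes, where 0.756% of 14810 genes were called higher and 1.73% in either direction. Dusp1 went from 3.04, 2.91 and 3.21 CPM in naive libraries to 6.84, 8.67 and 7.80 CPM at CFC10 and 5.68, 9.14 and 6.41 CPM at CFC30. Its naive libraries lay below all others, with log2 fold changes of 1.35 ± 0.19 (SE; adjusted p = 0.00488) and 1.24 ± 0.19 (adjusted p = 0.00159). Dusp1 was the only member called at 30 minutes, where 2.7% of genes were called higher and 5.94% in either direction. Spry2 went from 17.5, 17.2 and 15.7 CPM to 20.5, 24.2 and 21.9 CPM at CFC10, without overlap, and stood at 16.8, 19.5 and 18.3 CPM at CFC30. Its rise of 0.41 ± 0.10 (SE; adjusted p = 0.0460) at 10 minutes was lost without naive replicate 1 (0.136), 2 (0.156) or 3 (0.112), without CFC10 replicate 1 (0.0537), 2 (0.171) or 3 (0.121), and without CFC30 replicate 1 (0.0507). The medians over the 6 genes were 0.11 and 0.09 beside 0 for all genes. No member differed between 30 and 10 minutes (0.689% called), with 2 at an unadjusted p under 0.05.

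Marker levels moved with CFC in the mPFC NeuN- fraction. The summed level of 8 microglia markers was 1246 to 1319 CPM in naive and 950 to 1134 CPM in CFC libraries, with 3 of 8 falling at each time. That of 8 oligodendrocyte markers was 4844 to 5236 CPM in naive and 5388 to 5944 CPM in CFC libraries, with 2 of 8 rising at each time and 1 falling at 30 minutes. The sum of 10 striatal markers went from 183 to 194 CPM in naive to 370 to 714 CPM at CFC10 and 798 to 956 CPM at CFC30, which was Pde10a, a phosphodiesterase of cyclic nucleotides. The 9 other striatal markers summed to 28.05 to 36.9, 27.1 to 32.6 and 25.8 to 32.3 CPM. In hippocampal NeuN- libraries Pde10a was at 161 to 180 CPM in naive, 179 to 255 CPM in CFC10 and 275 to 367 CPM in CFC30 libraries. The part of these shifts in the member results was not tested.

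In hippocampal NeuN- nuclei none of the 6 members tested was called by edgeR, with 0.278% of 14771 genes called at 10 minutes, 2.42% at 30 and 0.169% between them. At an unadjusted p under 0.05 there were 1, 2 and 2 members. Dusp1 was at 3.69, 3.44 and 2.95 CPM in naive libraries, 6.02, 4.77, 5.85 and 5.45 CPM at CFC10 and 5.64, 6.47, 3.61 and 4.20 CPM at CFC30. The CFC10 libraries lay above the naive ones, with a log2 fold change of 0.68 ± 0.19 (SE; adjusted p = 0.130). The other 5 members had log2 fold changes between -0.24 and 0.22 at both times. Keeping both identical naive libraries moved Dusp1 past the threshold (adjusted p = 0.0386).

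**Figure D3:**
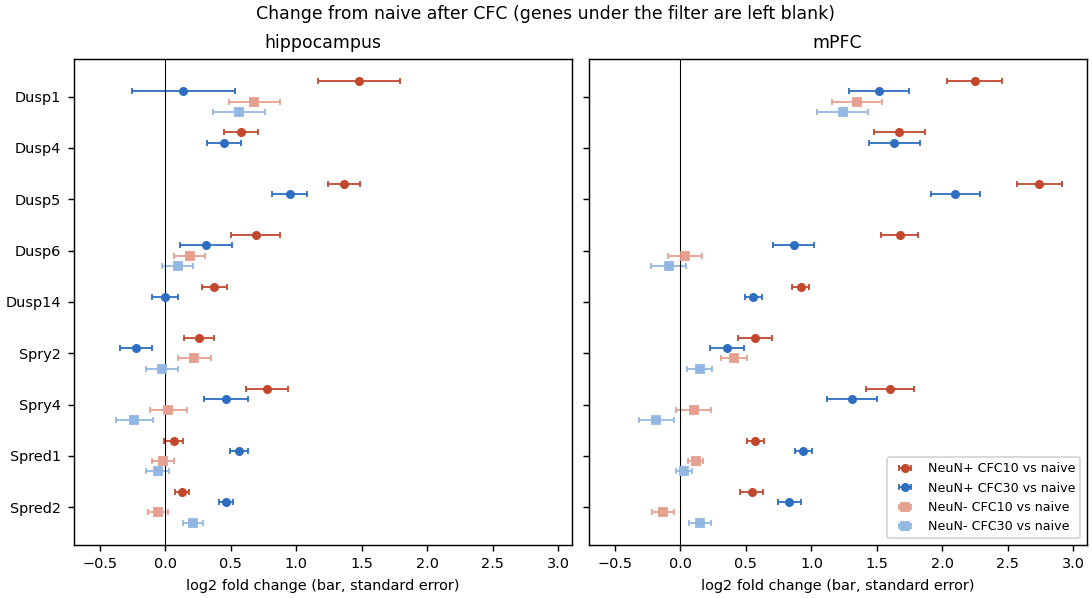
Log2 fold change from naive with its standard error for each gene 10 minutes (red) and 30 minutes (blue) after CFC, in NeuN+ (circles, dark) and NeuN- nuclei (squares, pale) of hippocampus and mPFC. Dusp1 is the member whose NeuN- values lie farthest from 0 in both regions.

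Whether NeuN- and NeuN+ nuclei responded differently was tested directly. At 10 minutes in the mPFC the effect was smaller in NeuN- nuclei for 5 of 9 genes, in a test that called 1.42% of 17316 genes lower and 2.06% in either direction: Dusp6 (log2 difference -1.65, adjusted p = 1.76e-05), Spry4 (-1.51, 0.000336), Spred2 (-0.69, 0.00241), Dusp4 (-1.82, 0.0105) and Spred1 (-0.47, 0.0304). At 30 minutes it was smaller for 5, with 2.58% of genes called lower and 4.18% in either direction: Spred1 (-0.92, 2.47e-06), Spry4 (-1.502, 0.000141), Spred2 (-0.69, 0.000949), Dusp6 (-0.96, 0.0114) and Dusp5 (-2.18, 0.0252). For Dusp1 the differences were -0.90 and -0.29 and for Spry2 -0.17 and -0.22, none called. The values of Dusp4 and Dusp5 rest on 2 to 16 counts in each mPFC NeuN- library. Both genes passed the expression filter of this joint fit through NeuN+ groups alone, so their differences describe them and do not test them. Dusp4 was lost at 10 minutes without NeuN- naive replicate 1 (adjusted p = 0.0600) or 2 (0.0617) or NeuN- CFC10 replicate 1 (0.0502), and Dusp5 at 30 minutes without NeuN- naive replicate 2 (0.190) or 3 (0.0738) or NeuN- CFC30 replicate 1 (0.0901). Spred1 was lost at 10 minutes without NeuN+ naive replicate 1 (0.117) or 3 (0.0813), NeuN+ CFC10 replicate 1 (0.102) or 3 (0.0972), NeuN- naive replicate 2 (0.0523) or 3 (0.0695), or NeuN- CFC10 replicate 1 (0.0685) or 2 (0.0749). Without NeuN- naive replicate 2 or NeuN- CFC10 replicate 1, 3 genes were called at 10 minutes. Dusp5 passed at 10 minutes without NeuN+ CFC10 replicate 2 (0.0470) or NeuN- CFC10 replicate 3 (0.0384). Dusp4 passed at 30 minutes without hippocampal NeuN+ CFC30 replicate 1 (0.0491) or 4 (0.0462), NeuN- naive replicate 3 (0.0360) or NeuN- CFC10 replicate 1 (0.0479). In the hippocampus Spred1 was called at 30 minutes (-0.63 ± 0.11 SE, adjusted p = 0.00382), with 0.196% of genes called lower and 0.358% in either direction, and no member at 10 minutes, with 0.0173% called and 5 members at an unadjusted p under 0.05.

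Before any stimulus the 9 genes differed in the fraction in which they were higher. In naive hippocampus all 9 differed between the fractions, as did 68.5% of all genes. Spry4 (log2 fold change 2.68), Dusp1 (1.99), Spry2 (1.29), Dusp6 (1.27) and Spred1 (0.95) were higher in NeuN- nuclei, and Dusp14 (-3.39), Dusp5 (-3.25), Dusp4 (-3.01) and Spred2 (-1.06) were lower. Dusp4, Dusp5 and Dusp14 lay under the expression filter in every NeuN- group and entered the joint fit through NeuN+ groups alone. Their differences in both regions describe them and do not test them. In naive mPFC 8 of 9 differed, beside 68.6% of all genes, in the same directions: Spry4 2.76, Dusp6 1.53, Spry2 0.97, Dusp1 0.70, Spred2 -1.10, Dusp4 -1.11, Dusp5 -2.47 and Dusp14 -5.24. Spred1 had 0.13 (adjusted p = 0.199). These tests also scaled libraries by edgeR's TMM factors, 0.844 to 0.856 in naive mPFC NeuN+ and 1.19 to 1.21 in naive mPFC NeuN- libraries. CPM carry no such scaling, and in CPM the level of Spred1 in NeuN- nuclei stood further above that in NeuN+ nuclei. The mPFC call of Dusp1 (adjusted p = 0.0300) was lost without NeuN+ naive replicate 3 (0.222) or NeuN- naive replicate 1 (0.0541) or 3 (0.0661).

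In the 4 hippocampal populations of saline-treated mice the members peaked in different cells. Dusp6 was highest in PU.1+ nuclei, at 43.5, 43.9, 36.1 and 34.6 CPM, against means of 9.89 in GFAP+, 5.64 in 3X- and 3.73 in NeuN+ nuclei. No PU.1+ library overlapped another population, and the log2 fold change against NeuN+ was 2.91 ± 0.13 (SE; adjusted p = 1.71e-23). Spry2 was highest in GFAP+ nuclei, at 29.2, 32.5, 26.6 and 31.5 CPM, and Spry4 in 3X- nuclei, at 27.7, 34.9, 26.3 and 31.4 CPM. Their log2 fold changes against NeuN+ were 2.18 ± 0.12 (SE; adjusted p = 4.79e-20) and 2.93 ± 0.17 (adjusted p = 1.66e-19), and both Sprouty genes were lower in PU.1+ than in NeuN+ nuclei (-1.65 and -1.005). Dusp1 was higher in GFAP+ (1.65) and 3X- (1.02) nuclei than in NeuN+ nuclei and not in PU.1+ (-0.06, adjusted p = 0.915). The log2 fold changes include TMM factors of 0.808 to 0.851 in saline NeuN+ and 0.998 to 1.19 in the other saline libraries, and CPM do not. In CPM the mean of Dusp1 was higher in PU.1+ than in NeuN+ nuclei, which was not tested without this scaling. Dusp4, Dusp5, Dusp14 and Spred2 were highest in NeuN+ nuclei, at means of 10.7, 12.1, 18.2 and 334 CPM, and lower in each other population by log2 fold changes of -0.77 to -3.37. In PU.1+ nuclei Dusp4, Dusp14 and Spry4 lay under the expression filter, as did Dusp4, Dusp5 and Dusp14 in 3X- nuclei. They entered the tests through other populations, so those values describe them and do not test them. In these tests 9 members were called for GFAP+, 8 for PU.1+ and 8 for 3X- nuclei, beside 61.1%, 68.4% and 61.8% of all genes. Dusp6 in 3X- nuclei (0.31, adjusted p = 0.130) passed without NeuN+ saline replicate 1 (0.0206).

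Levels are set side by side between genes as FPKM, the CPM divided by the RefSeq gene span in kilobases. Exons make up 4.64% (Spred2) to 73.5% (Dusp6) of the members' GENCODE spans, and how counts scale with span was not tested. Dusp1 spans 2882 bp in RefSeq and 56539 bp in GENCODE, so its FPKM would be lower over the GENCODE span. In saline NeuN+ nuclei the order was Spred2 (3.36 ± 0.15 FPKM, SD, n = 4), Spred1 (1.38 ± 0.09), Spry2 (1.06 ± 0.15), Dusp5 (0.955 ± 0.121), Dusp6 (0.877 ± 0.242), Dusp4 (0.871 ± 0.071), Dusp14 (0.859 ± 0.035), Dusp1 (0.483 ± 0.137) and Spry4 (0.213 ± 0.057). From Spry2 to Dusp14 the neighbours differed by less than their SD, while Spred2 lay well above all. In GFAP+ nuclei Spry2 led, at 6.15 ± 0.54 FPKM, followed by Spred1 at 3.32 ± 0.18, and in PU.1+ nuclei Dusp6 led, at 9.28 ± 1.14 FPKM. In 3X- nuclei Spred1 (2.56 ± 0.18), Spry2 (2.21 ± 0.28) and Spry4 (1.99 ± 0.26) led, with Spry2 and Spry4 apart by less than their SD.

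**Figure D4:**
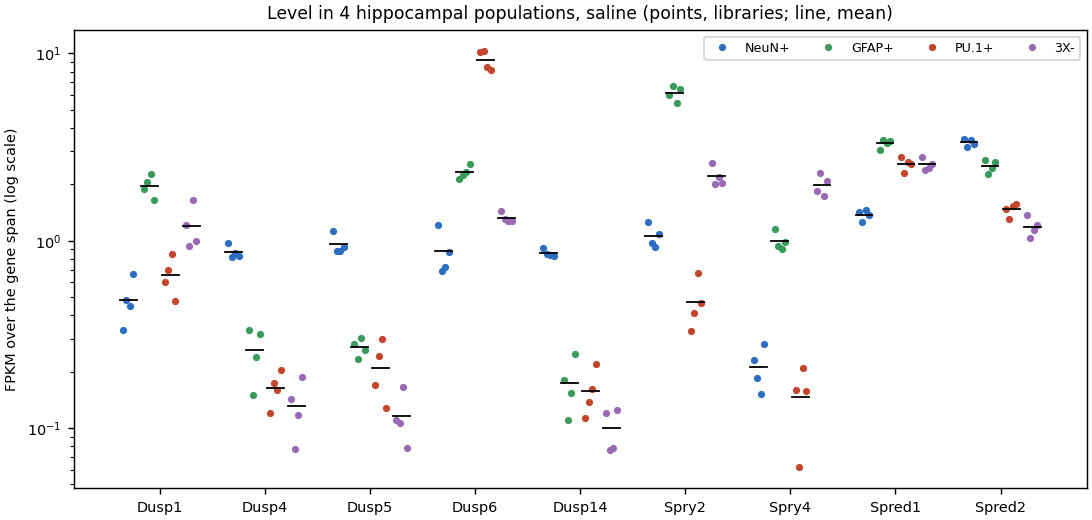
FPKM over the gene span (log axis) of each gene in NeuN+, GFAP+, PU.1+ and 3X- hippocampal nuclei of saline-treated mice; points are libraries (4 per population) and lines are means. Dusp6 stands highest in PU.1+, Spry2 in GFAP+ and Spry4 in 3X- nuclei, and Dusp4, Dusp5 and Dusp14 in NeuN+ nuclei.

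Between saline and corticosterone, the main glucocorticoid of rodents, 1 or 2 members were called in each population after 30 minutes. Only the calls of Spred1 in GFAP+ and Spry4 in 3X- nuclei held under all other settings and without any single library. In PU.1+ nuclei Dusp1 rose from 1.74, 2.00, 2.44 and 1.38 CPM with saline to 3.17, 4.01, 2.94 and 3.58 CPM, without overlap, a log2 fold change of 0.88 ± 0.22 (SE; adjusted p = 0.0193). It was the only one of 6 members tested to be called, beside 4.4% of genes called higher and 7.84% in either direction. The call was lost without saline replicate 1 (adjusted p = 0.0512) or 4 (0.0692) or corticosterone replicate 2 (0.0588) or 4 (0.0571), and without corticosterone replicate 3 Spred2 passed as well (0.0326). The summed level of 8 astrocyte markers in these libraries was 651 to 891 CPM with saline and 943 to 1207 CPM with corticosterone, with 2 of the 7 tested rising, and its part in the change of Dusp1 was not tested.

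In 3X- nuclei Dusp1 rose and Spry4 fell, 2 of the 6 members tested, with 5.2% of genes called higher and 2.45% lower, 7.65% in all. Dusp1 went from 3.49, 2.71, 4.77 and 2.87 CPM to 6.91, 6.48, 4.94 and 4.41 CPM, 0.72 ± 0.20 higher (SE; adjusted p = 0.0210), with 1 saline library above the lowest corticosterone library. Spry4 went from 27.7, 34.9, 26.3 and 31.4 CPM to 19.04, 18.7, 18.2 and 23.6 CPM without overlap, a log2 fold change of -0.57 ± 0.11 (SE; adjusted p = 0.000299). The call of Spry4 held without any single library. That of Dusp1 was lost without saline replicate 2 (adjusted p = 0.0755) or 4 (0.0988) or corticosterone replicate 1 (0.0761) or 2 (0.0651), with filterByExpr (0.0591) and with DESeq2 (0.0636). Spred1 (0.22, adjusted p = 0.0623) passed without saline replicate 1 (0.0225) or corticosterone replicate 2 (0.00657). The summed level of 8 oligodendrocyte markers in these libraries was 9745 to 10270 CPM with saline and 10414 to 11637 CPM with corticosterone, without overlap. Of 6 microglia markers tested in these libraries 2 rose, at summed levels of 39.0 to 52.1 CPM with saline and 45.5 to 73.3 CPM with corticosterone, and 3 of 8 oligodendrocyte precursor markers rose. Their part in these values was not tested.

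In GFAP+ nuclei Spred1 rose and Spry2 fell, with 2.04% of genes called higher and 0.898% lower, 2.93% in all. Spred1 went from 187, 210.4, 205 and 210.0 CPM to 249, 238, 246 and 240 CPM and Spry2 from 29.2, 32.5, 26.6 and 31.5 CPM to 22.0, 20.4, 23.1 and 19.9 CPM. Neither gene overlapped between treatments, with log2 fold changes of 0.31 ± 0.06 (SE; adjusted p = 0.00903) and -0.44 ± 0.09 (adjusted p = 0.0172). Spry2 was lost without saline replicate 4 (adjusted p = 0.0635) or corticosterone replicate 2 (0.0639) or 4 (0.0639).

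In NeuN+ nuclei Dusp14 rose and Spred2 fell, with 1.28% of genes called higher and 0.797% lower, 2.07% in all. Dusp14 went from 19.3, 18.1, 17.9 and 17.7 CPM to 23.0, 22.6, 22.1 and 20.8 CPM and Spred2 from 349, 317, 344 and 328 CPM to 315, 267, 303 and 280 CPM. Both pairs of groups were apart, with log2 fold changes of 0.30 ± 0.08 (SE; adjusted p = 0.0265) and -0.18 ± 0.04 (adjusted p = 0.0139). Spry2 was at 6.16, 4.73, 4.49 and 5.33 CPM with saline and 4.00, 3.16, 3.63 and 3.60 CPM with corticosterone, also apart, but did not pass (-0.49 ± 0.17, adjusted p = 0.145). Dusp14 was lost without saline replicate 2 (0.0644) or 4 (0.117) or corticosterone replicate 1 (0.0700), 2 (0.0697) or 3 (0.0616), and with DESeq2 (0.139). Spred2 was lost without saline replicate 1 (0.0998) or 3 (0.0528) or corticosterone replicate 2 (0.101) or 4 (0.130). At least 1 of these calls was lost in each of the 8 fits with a library left out. The corticosterone effect did not pass as different from that in NeuN+ nuclei for any member in GFAP+, PU.1+ or 3X- nuclei, in tests that called 0.514%, 1.54% and 2.08% of 18479 genes, with 3, 1 and 2 members at an unadjusted p under 0.05.

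**Figure D5:**
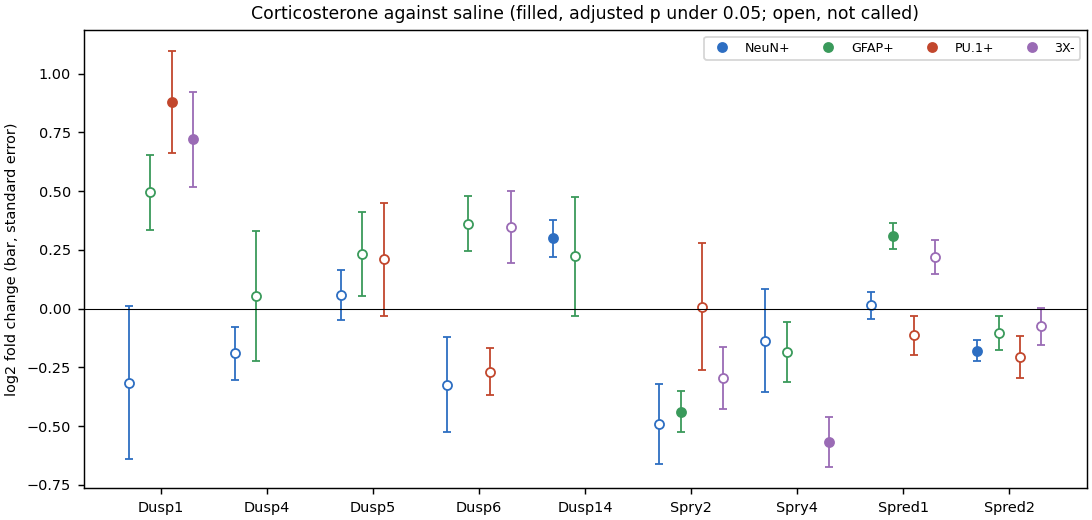
Log2 fold change of corticosterone against saline with its standard error in NeuN+, GFAP+, PU.1+ and 3X- nuclei; filled points have an adjusted p under 0.05 and members under the expression filter are left out. Dusp1 was called higher in PU.1+ and 3X-, Spred1 in GFAP+ and Dusp14 in NeuN+ nuclei. Spry2 in GFAP+, Spry4 in 3X- and Spred2 in NeuN+ nuclei were called lower.

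Other genes of the pathway were called after CFC as well. Of the ERK target genes (immediate-early and ETS genes), 12 rose and 1 fell of 14 tested in mPFC NeuN+ nuclei at 10 minutes, with a median log2 fold change of 2.71, among them Arc (3.82 ± 0.13 SE), Egr1 (3.04 ± 0.15) and Nr4a1 (1.40 ± 0.07). In hippocampal NeuN+ nuclei 9 rose and none fell of 13, with a median of 1.68 (Npas4 2.28, Arc 2.20, Egr1 2.26). This list was drawn up by name, and whether its genes, Npas4 among them, depend on ERK in these nuclei was not tested. Between 10 and 30 minutes 9 of the 14 fell and 1 rose in the mPFC (median -1.09) and 6 of the 13 fell and 1 rose in the hippocampus (median -1.04), with Npas4 lower by -1.65 and -1.73. Of all genes, 14.6% in the mPFC and 4.92% in the hippocampus were called at 10 minutes, and 1.29% and 0.305% over this interval. Spred1 was called higher over the same interval in both regions.

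Other feedback regulators rose in 6 of 10 cases in mPFC NeuN+ nuclei at 10 minutes (median 0.26), led by Trib1 (1.93 ± 0.16 SE), a pseudokinase, and Errfi1 (0.70 ± 0.13), an inhibitor of the EGF receptor. In hippocampal NeuN+ nuclei 2 of 9 rose, Trib1 (1.29 ± 0.26) and Errfi1 (0.89 ± 0.07). Of the MAPK phosphatases that are not members, 1 of 2 tested rose in each region, Dusp7 (0.41) in the mPFC and Dusp8 (0.23) in the hippocampus. Spred3 rose at 30 minutes in both (0.55 and 0.41).

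Of the core cascade from adaptors to ERK, 4 rose and 1 fell of 25 in mPFC NeuN+ nuclei at 10 minutes (median -0.01; Rasgrp1 0.38, Grb2 0.30, Rasgrf2 -0.31), and none of 24 was called in the hippocampus (median -0.02). Over all genes 14.6% and 4.92% were called in these comparisons, and no difference between lists was tested. Receptors rose in 4 of 6 cases in the mPFC (Ntrk2, the BDNF receptor, 0.66; Fgfr1 0.49) and 3 of 6 in the hippocampus (Ntrk2 0.30, Fgfr1 0.24). Ligands rose in 2 of 7 cases in the mPFC (Bdnf 0.82, Vgf 0.65) and 0 of 8 in the hippocampus. The JNK and p38 kinases gave 3 up and 1 down of 10 in the mPFC and 1 up of 9 in the hippocampus, and the kinases and factors that ERK activates 3 up and 1 down of 10, and 0 of 10.

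In NeuN- nuclei of the mPFC 4 of 13 ERK target genes rose at 10 minutes (median 0.23; Fos 3.48, Nr4a1 1.04, Arc 1.03), and 4 rose and 1 fell at 30 minutes (median 0.51). In the hippocampal NeuN- fraction 1 of 13 was called at each time. The shares of all genes called at 10 and 30 minutes were 1.73% and 5.94% in mPFC and 0.278% and 2.42% in hippocampal NeuN- nuclei. Glucocorticoid target genes rose in NeuN- nuclei at 30 minutes, 7 of 11 in the mPFC (median 0.91; Sgk1 1.12, Ddit4 1.04, Per1 1.01) and 6 of 11 in the hippocampus (median 0.68; Sgk1 0.96). In NeuN+ nuclei 5 of 9 rose in the mPFC and 3 of 9 in the hippocampus at each time. All genes called higher there at 10 and 30 minutes made up 8.28% and 13.1% in the mPFC and 2.74% and 4.7% in the hippocampus. After corticosterone the glucocorticoid target genes rose in 10 of 12 cases in PU.1+ (median 0.96), 9 of 12 in 3X- (1.17), 9 of 12 in GFAP+ (0.94) and 4 of 9 in NeuN+ nuclei (0.17, with 1 falling). Errfi1, which is on this list as well as among the feedback regulators, rose in all 4 populations, by 0.40 in NeuN+, 0.31 in PU.1+, 1.43 in GFAP+ and 1.95 in 3X- nuclei. ERK target genes were called in 0 of 10 cases in NeuN+, 1 of 13 in GFAP+, 3 of 12 in PU.1+ and 2 of 12 in 3X- nuclei. Over all genes 2.07%, 2.93%, 7.84% and 7.65% were called in these populations, and no difference between lists was tested. In PU.1+ nuclei the cascade genes Map2k1 (-0.32) and Rap1b (-0.28) fell, with Dusp7 down (-0.87 ± 0.08 SE) and Dusp10 up (0.72 ± 0.17). In 3X- nuclei 2 of 25 cascade genes rose and 4 fell (Ptpn11 0.81, Rapgef2 0.44, Rap1a -0.68).

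Genes with the most similar pattern were sought over the 41 libraries of the CFC experiment, as the Pearson correlation of log2(CPM + 1) after each region's and fraction's mean was removed. The closest gene was Egr1 for Dusp1 (r = 0.92), Egr3 for Dusp4 (0.86), Arc for Dusp5 (0.92), Trib1 for Dusp6 (0.90), Mcl1 for Dusp14 (0.77) and Spry2 (0.74), Efhd2 for Spry4 (0.85), Homer1 for Spred1 (0.90) and Fgfr1 for Spred2 (0.88). In an alternative chosen after seeing the data, Dusp5 alone kept its closest gene within the 23 hippocampal libraries, and 4 genes (Dusp1, Dusp5, Dusp6 and Spry4) did within the 18 mPFC libraries. The libraries share the conditioning groups, so these values describe the common response to CFC and carry no p.

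γH2AX peaks lay at 2 of the 9 genes in the hippocampus (282 peaks) and at 5 in the mPFC (260 peaks), beside 2.38% and 2.11% of all genes tested in NeuN+ nuclei of each region. The peak lists join naive and CFC30 samples and hold positions (mm10) without heights or replicates, so they show where a peak was called and not in which condition. They come from whole tissue, so a peak cannot be assigned to NeuN+ or NeuN- nuclei. At Dusp6 the hippocampal peak was chr10:99263564-99269500 and the mPFC peak chr10:99262252-99270015. The mPFC peak covered the whole gene and ran 2.53 kb past its 3′ end, while the hippocampal one, 5.94 kb wide, began 333 bp inside the gene and covered 92.2% of it. At Spry2 the peaks were chr14:105889157-105897031 and chr14:105888332-105898607, which covered the gene in both regions and ran 2.79 and 3.62 kb past its end.

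The mPFC alone had peaks at Dusp1 (chr17:26503892-26508766), Spred1 (chr2:117119599-117195103) and Spred2 (chr11:19924296-20029144). Each covered the whole RefSeq span, and the peaks were 4.88, 75.5 and 104.8 kb wide, against a median of 16.5 kb in that list. The Dusp1 peak began 294 bp before the RefSeq start, so it held the CRE shown above, and it reached 1.70 kb past the end of the gene. Dusp4, Dusp14, Spry4 and Dusp5, the member that rose most in mPFC NeuN+ nuclei, had no peak in either region. The nearest peak to any of them was 373952 bp away, at Spry4. Among the pathway lists, Dusp7, Pea15a and Vgf had a peak in both regions, Ksr1 in the hippocampus and Ntrk2 in the mPFC, and ERK target genes in 4 and 6 of 16 cases.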

How the data were processed

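Nuclei were fixed, stained and sorted, and their RNA was sequenced with SMARTer Stranded Total RNA-Seq Pico kits, version 1 (mPFC) or 2 (hippocampus). The authors deposited raw read counts per gene over the whole gene body, and, per the labels, reads passed through Trimmomatic, HISAT2, Picard, SAMtools and featureCounts on GRCm38 (mm10). The strand setting and annotation of counting are not given in the sources used here. γH2AX peaks (Bowtie2, MACS2, bedtools) were used by position only.

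The 9 members and all lists were chosen with earlier results of these data known. Symbols came from GENCODE release M21, which lacked 67 of 53749 identifiers (at most 0.0569% of counts). Genes with an FPKM above 0.2 in at least 1 group, over the RefSeq span (GENCODE for 15775 genes), were tested by edgeR 4.0.16 (R 4.3.3; quasi-likelihood, TMM, Benjamini-Hochberg, adjusted p under 0.05) on the deposited counts, per region and fraction or population. Differences of effects came from joint fits, which treat all libraries as independent, although sorted fractions may come from the same animals. CPM divide by the library total. All members are named, with at most 3 called genes per list and comparison, those with the smallest adjusted p, and the closest gene by correlation. Alternatives were DESeq2 1.42.0, other filters, normalization, only the groups compared, a replicate block and each library left out. Fits were tested on simulated data with changes placed in well-counted genes only, so this check does not cover members with few counts. Some genes of the pathway lists are not reported here by name.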

Additional observations from a re-analysis of the deposited data

Results flagged for a closer look

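In 15 cases the effect of CFC differed between fractions or regions by a test of the difference itself (edgeR, joint fit, adjusted p under 0.05). For NeuN- minus NeuN+ nuclei of the mPFC at 10 minutes the log2 differences were -1.82 for Dusp4, -1.65 for Dusp6, -1.51 for Spry4, -0.47 for Spred1 and -0.69 for Spred2. At 30 minutes they were -2.18 for Dusp5, -0.96 for Dusp6, -1.502 for Spry4, -0.92 for Spred1 and -0.69 for Spred2. Of these, Dusp4 and Dusp5 passed the expression filter through NeuN+ groups alone, so their values describe them and do not test them. In the hippocampus the difference was -0.63 for Spred1 at 30 minutes. For mPFC minus hippocampus in NeuN+ nuclei it was 1.37 for Dusp5 at 10 minutes, and 1.19 for Dusp4, 1.16 for Dusp5 and 0.57 for Dusp14 at 30 minutes, where region and library kit cannot be told apart.

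A single library stood apart in 4 of 117 sets tested by Dixon's criterion, each set being 1 gene in 1 group of 4 libraries, and chance flags about 1 in 20 sets. Groups of 3 libraries, which are those of the mPFC and the naive hippocampal NeuN- group, were not tested. Hippocampal NeuN- CFC30 replicate 2 held 1.81 CPM of Dusp14 (the others 1.35 to 1.43) and 17.9 CPM of Spry2 (the others 13.9 to 14.6). Hippocampal NeuN+ CFC10 replicate 2 held 3.02 CPM of Spry4 (the others 3.72 to 3.83). Corticosterone 3X- replicate 4 held 23.6 CPM of Spry4 (the others 18.2 to 19.04).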

How the results depend on the processing

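Of 101 calls of members, 74 passed the threshold under every alternative, and no called value changed sign. A further 8, all of Dusp1, passed wherever an adjusted p was given, but had none with GENCODE gene lengths and in some cases with DESeq2. The 101 calls pool effects with differences in level between fractions or populations, where 61.1% to 68.6% of all genes were called. Among those level differences only that of Dusp1 in naive mPFC was lost in an alternative, and the other lost calls were effects. Of the corticosterone calls, only Spred1 in GFAP+ and Spry4 in 3X- nuclei held in every alternative. Counts of members called moved by over 1.5 times as follows. With no filter on low values they went from 2 to 5 for hippocampal NeuN+ and from 0 to 1 for hippocampal and for mPFC NeuN- nuclei at 30 against 10 minutes, from 0 to 1 for hippocampal NeuN- CFC10, and for mPFC minus hippocampus in NeuN+ nuclei from 1 to 6 at 10 and from 3 to 5 at 30 minutes. DESeq2 gave 0 in place of 2 for mPFC NeuN- CFC10, where its adjusted p was 0.0597 for Spry2 and NA for Dusp1, 1 in place of 2 for NeuN+ corticosterone and 5 in place of 1 for the NeuN+ region difference at 10 minutes. With filterByExpr mPFC NeuN- CFC10 and 3X- corticosterone each had 1 in place of 2. Keeping both identical naive libraries gave 1 in place of 0 for hippocampal NeuN- CFC10 and 3 in place of 1 for the NeuN+ region difference at 10 minutes. With GENCODE gene lengths, an alternative chosen after seeing the data, Dusp1 fell under the filter everywhere, which left 1 for mPFC NeuN- CFC10, 0 for mPFC NeuN- CFC30, 0 for PU.1+ and 1 for 3X- corticosterone. The cause of the other changes was not tested.

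Leaving out each library gave 3 to 6 members for hippocampal NeuN+ CFC10, 3 to 5 for CFC30 and 2 to 4 between them, and for mPFC NeuN+ 9 to 9, 8 to 9 and 3 to 6. It gave 1 to 2 for mPFC NeuN- CFC10, 0 to 1 for NeuN+, 1 to 2 for GFAP+, 0 to 2 for PU.1+ and 1 to 3 for 3X- corticosterone. The ranges were 3 to 6 and 4 to 6 for the mPFC fraction difference and 1 to 4 and 0 to 3 for the NeuN+ region difference at 10 and 30 minutes. Deviations of same-numbered libraries correlated at -0.32 to 0.47 between conditions of a fraction or population, with every pair over 0.1 in 0 of 16 pairs of groups. Between fractions or populations of a condition every pair was over 0.1 in 2 of 18, mPFC CFC10 NeuN+ with NeuN- (0.12 to 0.13) and saline GFAP+ with 3X- (0.16 to 0.25). The labels do not say whether these share animals. With the replicate block 3 members in place of 1 were called for the NeuN+ region difference at 10 minutes, no other count moved by over 1.5 times, and the mPFC fraction difference at 10 minutes kept its 5 genes. Dusp1 in hippocampal NeuN+ nuclei (3 to 17 counts at CFC30) and Dusp4, Dusp5 and Dusp14 in NeuN- nuclei are limited by depth.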
